A study of Chromochloris zofingiensis with 6 samples.

Results

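The genes described here are the early light-induced protein (ELIP) and high light-induced protein (HLIP) genes and the photosystem and chloroplast assembly factor genes of *Chromochloris zofingiensis*, a freshwater unicellular green alga. The members came from the study's own annotated list of photosynthesis genes. They were the genes of its assembly factor section and its ELIP and HLIP section, each gene counted once. Genes that the list also gives in its photosystem, light-harvesting or chlorophyll synthesis sections were left out. This rule used no expression value and gave 50 genes of the 15037 genes listed in the data, of which 11 were ELIP or HLIP genes and 39 were assembly factor genes. All 50 were listed and passed the filter on low values (a mean of at least 1 FPKM at either time). ELIP6 passed it at 6 h only, and some members, ELIP8 and ELIP10 among them, at 0 h only. The gene symbols and roles are those of the study's annotation, and gene models are named by their identifiers. Chromosome positions and sequences were not used here.

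Poly-A RNA of strain ATCC30412 was sequenced from 3 libraries at 6 h of salt stress with 200 mM NaCl and from 3 libraries at 0 h. The labels give the same culture for both times, a 250 mL column inoculated at 0.5 g per L, with 80 µE of continuous light and air enriched to 1.5% CO2, whereas a smaller column and less light are stated in the methods of the study. The study names the replicates of each time biological, while the labels only number them. Unsalted cells of 6 h were not sampled, and salt, time in culture and the handling at the start of treatment cannot be told apart in the difference between 6 h and 0 h.

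Photosystems are built in the thylakoid membrane from many subunits, pigments and iron-sulphur clusters. Assembly factors insert, fold, modify or protect these subunits, and do not remain in the finished complex. ELIPs belong to the same superfamily as the light-harvesting proteins, carry membrane helices with sites for chlorophyll, and are known from plants and algae as stress proteins of the thylakoid that appear under excess light, cold or drought. HLIPs are their smaller relatives with a single helix, known best from cyanobacteria. ELIPs are thought to hold free chlorophyll safely while the photosystems are dismantled or rebuilt.

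Of 13886 genes tested, 2772 (20.0%) were called higher and 3692 (26.6%) lower at 6 h than at 0 h, where a call required at least a 2-fold change and an adjusted p under 0.05 in limma with Benjamini-Hochberg (BH) adjustment over all genes tested. Changes are given as log2 fold changes, 6 h over 0 h, of FPKM (fragments mapped to a gene model, divided by its length and by the size of the library) divided by a scaling factor for each library, with 0.1 added. The median over all genes was -0.04 on this scale, and it moved to -0.34 without the scaling factors and to -0.47 when each library was scaled to the same total (TPM), so that the genes near a limit depended on the scaling. Over all genes 1925 were then called higher and 4466 lower without the factors, and 1624 higher and 4738 lower on the TPM scale, while the ELIP and HLIP calls were the same under all 3 scalings. The 6 h libraries differed more among themselves than the 0 h libraries did, with a residual SD between 0.289 and 0.630 at 6 h, against 0.165 to 0.195 at 0 h (log2 scale). FPKM are shares of a library, so fewer transcripts of a gene per cell and more transcripts of other genes cannot be told apart.

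The response of the 50 genes was split. Among the genes that rose were 6 ELIP genes, and 3 other ELIP genes fell. The largest rise, of ELIP1, was 23.9-fold by mean deposited FPKM and 4.90 as a log2 fold change of scaled values. In total 12 members (24%) were called higher and 11 (22%) lower, which is close to the 20.0% and 26.6% of all genes, and the median log2 fold change of the members was -0.10. Among the 11 ELIP and HLIP genes 6 (54.5%) were called higher and 3 (27.3%) lower, and the median was 1.85. Of the 39 assembly factor genes, 6 (15.4%) were called higher and 8 (20.5%) lower, and their median was -0.28. By the deposited FPKM, the libraries of 16 members (32%) were all higher at 6 h than at 0 h and those of 25 members (50%) all lower, against 27.2% and 46.1% of all genes tested.

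**Figure D1:**
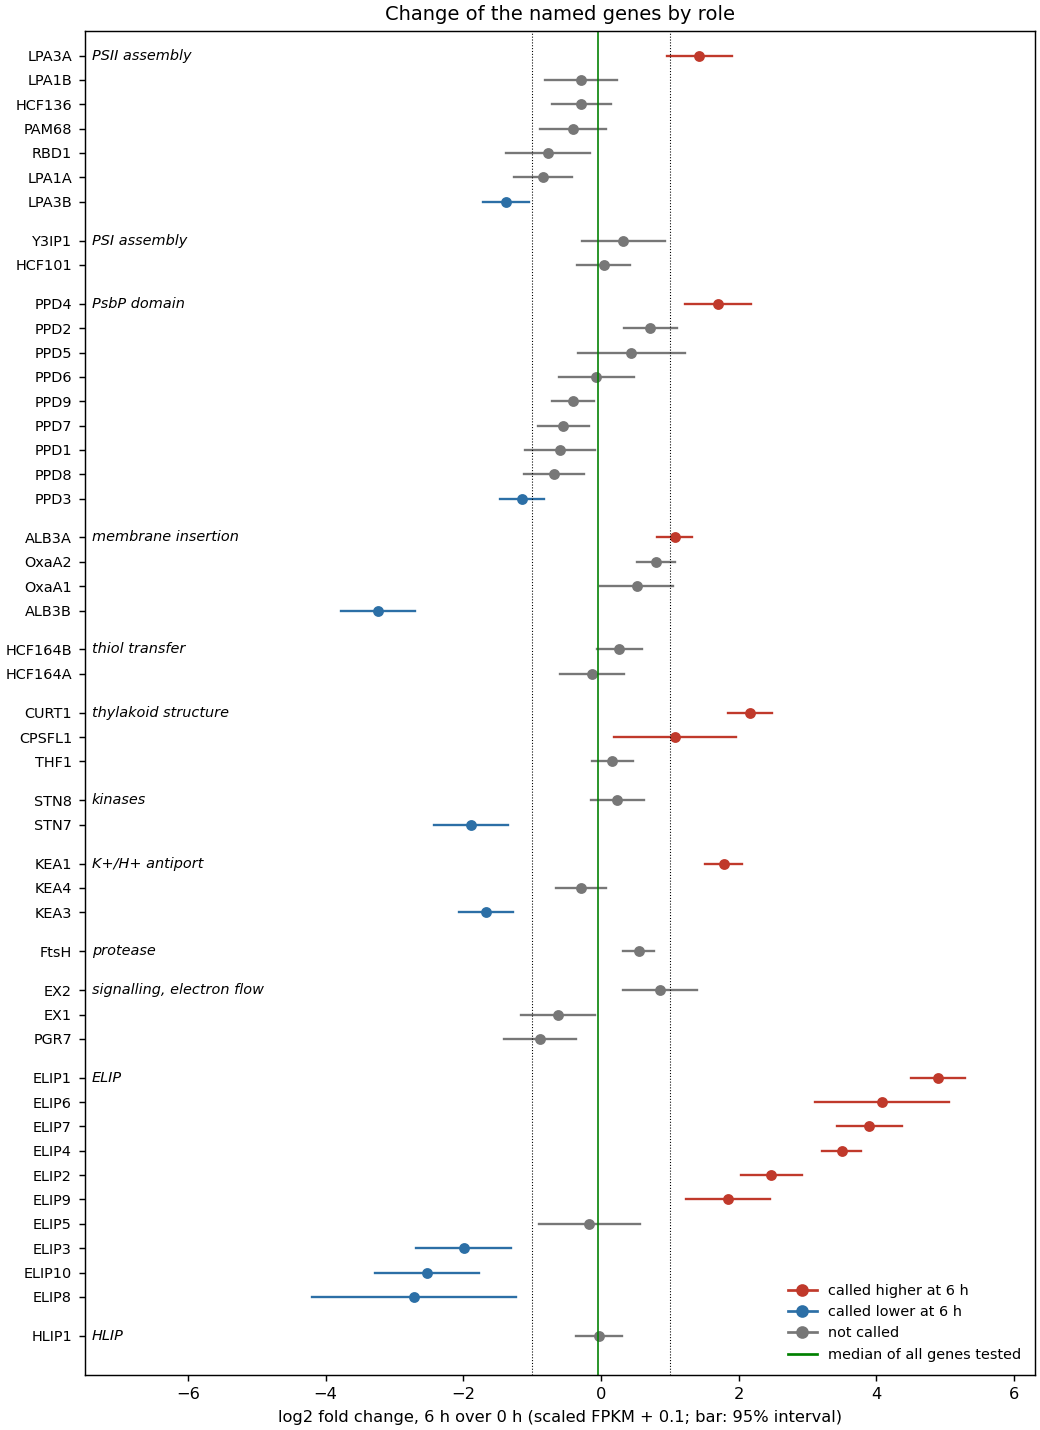
Log2 fold change, 6 h over 0 h, of the named genes grouped by role (vertical), with the 95% interval of limma as a bar. Red genes were called higher and blue genes lower, dotted lines mark a 2-fold change and the green line marks the median of all genes tested; the ELIP genes spread from 4.90 to -2.71.

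Among the members, the largest rises were those of ELIP genes. ELIP1 (Cz07g29280) had 2797, 2363 and 2401 FPKM at 6 h, against 87.2, 112 and 117 FPKM at 0 h. Every 6 h library was above every 0 h library by more than an order of magnitude, and the log2 fold change was 4.90 ± 0.16 (SE; limma, BH-adjusted p = 8.22e-06). ELIP1 ranked 28 of 15037 genes by mean FPKM at 6 h and 1423 at 0 h. ELIP7 (Cz17g00090) had 3662, 2882 and 2393 FPKM at 6 h and 229, 250 and 253 FPKM at 0 h, a log2 fold change of 3.90 ± 0.19 (limma, BH-adjusted p = 1.93e-05). With this it was the most abundant of the members at 6 h, at rank 23 of all genes, although its 6 h libraries were 1.53-fold apart. ELIP4 (Cz01g42110) had 2055, 1857 and 2000 FPKM at 6 h and 221, 215 and 212 FPKM at 0 h, a log2 fold change of 3.50 ± 0.12 (limma, BH-adjusted p = 9.11e-06). Its libraries lay closer together than those of ELIP1 or ELIP7 at 6 h, within 1.11-fold of each other.

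The other ELIP genes that rose reached lower levels at 6 h. ELIP2 (Cz07g30110) had 883, 771 and 578 FPKM at 6 h, against 168, 158 and 164 FPKM at 0 h, and its log2 fold change was 2.47 ± 0.18 (limma, BH-adjusted p = 7.47e-05). ELIP9 (Cz03g10240) had 99.2, 69.0 and 53.5 FPKM at 6 h, against 21.4, 24.5 and 28.3 FPKM at 0 h, and its log2 fold change was 1.85 ± 0.25 (limma, BH-adjusted p = 0.00098). The times did not overlap for either gene, and in both the first 6 h replicate was the highest. ELIP6 (Cz12g27130) had 6.17, 7.49 and 8.95 FPKM at 6 h, and at 0 h 0.51, 0.72 and 0.21 FPKM, near the lower end of what is listed. Its log2 fold change of 4.08 ± 0.40 (limma, BH-adjusted p = 2.37e-04) is second only to that of ELIP1 among the members, but depends on the value added before taking the log, being 2.71 with 1 FPKM added and 4.4 with 0.01 FPKM added. In level it remained far below the other ELIP genes that rose.

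Not all ELIP genes moved this way. ELIP3 (Cz14g24190) had 5.62, 3.99 and 2.71 FPKM at 6 h, against 18.5, 19.0 and 22 FPKM at 0 h, a log2 fold change of -2.0 ± 0.29 (limma, BH-adjusted p = 0.00122). ELIP10 (Cz08g00120) had 1.36, 0.70 and 0.71 FPKM at 6 h, against 7.45, 6.88 and 6.24 FPKM at 0 h, a log2 fold change of -2.53 ± 0.31 (limma, BH-adjusted p = 6.2e-04). Both fell in every 6 h library. ELIP8 (Cz17g16050) was lower still, with 0.19 and 0.34 FPKM in the first and second 6 h replicates and no entry (read as 0) in the third replicate, against 1.35, 1.79 and 1.99 FPKM at 0 h. Its log2 fold change was -2.71 ± 0.61 (limma, BH-adjusted p = 0.0083), with the largest SE of all members. It was -1.09 with 1 FPKM added and -4.0 with 0.01 FPKM added, and it is not called when the limit on the fold change is part of the test (limma treat). The 3 ELIP genes that fell had means of 1.71 to 19.8 FPKM at 0 h, while ELIP1, ELIP2, ELIP4 and ELIP7, which rose, had means of 105 to 244 FPKM there. ELIP9 and ELIP6, which rose as well, had means of 24.7 and 0.48 FPKM at 0 h.

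ELIP5 (Cz02g38160) had 60.0, 38.8 and 27.4 FPKM at 6 h and 47.1, 62.0 and 58.9 FPKM at 0 h. The times overlapped, and the log2 fold change of -0.17 ± 0.30 was within the spread of the libraries (limma, BH-adjusted p = 0.637). HLIP1 (Cz14g04020) is the only HLIP gene of the list. It had 14.0, 15.9 and 13.6 FPKM at 6 h and 17.4, 20.3 and 17.2 FPKM at 0 h, a log2 fold change of -0.03 ± 0.14 (limma, BH-adjusted p = 0.861). Its deposited FPKM were lower in every 6 h library, but the scaled values overlapped, and the 95% interval of its log2 fold change was -0.36 to 0.31.

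**Figure D2:**
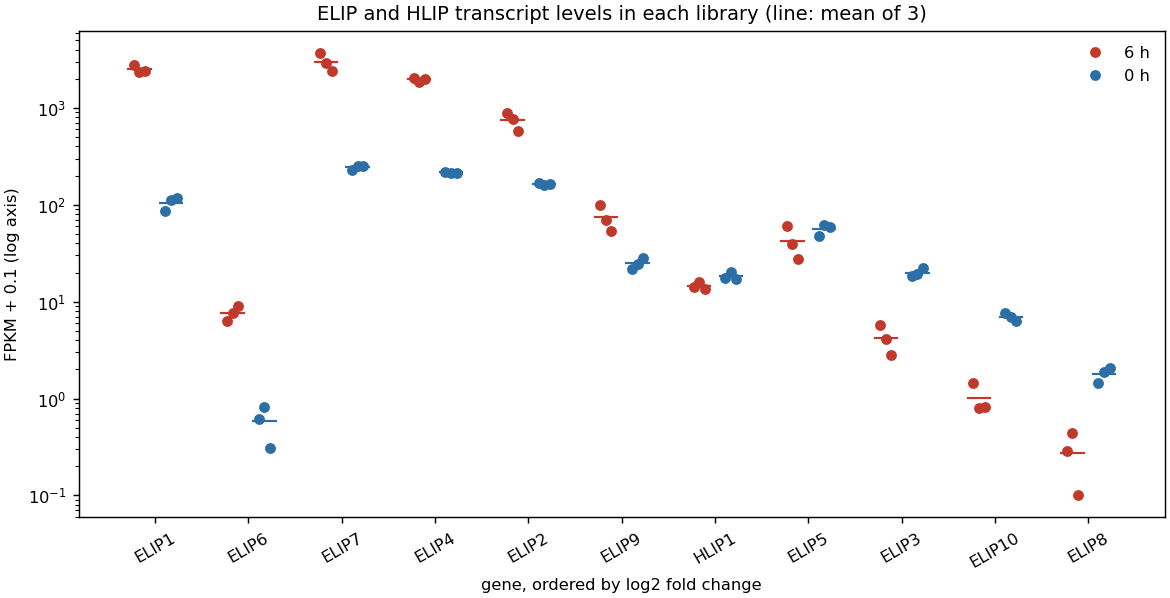
FPKM + 0.1 (log axis) of the 10 ELIP genes and HLIP1 in each library, 6 h in red on the left and 0 h in blue on the right of each gene, with a line at the mean of the 3 libraries. ELIP1, ELIP7 and ELIP4 lie between 1857 and 3662 FPKM at 6 h, and ELIP3, ELIP10 and ELIP8 are below their 0 h libraries.

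The sums in this paragraph are of deposited FPKM. Added up, the 11 ELIP and HLIP genes had 8357 ± 1094 FPKM at 6 h and 856 ± 33.3 FPKM at 0 h (SD, n = 3 each), a ratio of 9.76. They took 0.844, 0.760 and 0.799% of all FPKM at 6 h, against 0.0885, 0.0923 and 0.0901% at 0 h. ELIP1, ELIP4 and ELIP7 together held 88.7 to 90.8% of the sum at 6 h and 65.6 to 66.2% at 0 h. These 3 were chosen as the most abundant at 6 h, which favours a higher share at that time. At 0 h ELIP2 (mean 163 FPKM) was above ELIP1 (mean 105 FPKM). While the ELIP and HLIP sum rose, that of the light-harvesting genes fell in the same libraries. Light-harvesting proteins are the relatives of ELIPs in the antenna. The 22 light-harvesting genes summed to 1229, 1097 and 830 FPKM at 6 h, against 50974, 56752 and 59733 FPKM at 0 h. Not every gene followed the sum. Of the 21 tested, 16 were called lower and 3 higher, namely LHC11 (log2 fold change 4.62), LHC12 (1.55) and LHC10 (1.29). The ELIP and HLIP sum was thus 7.30 to 9.01 times the light-harvesting sum at 6 h, while at 0 h the light-harvesting sum was 62.3 to 67.8 times the ELIP and HLIP sum.

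The level of ELIP transcripts differed between the replicates of 6 h. The first 6 h replicate had the highest FPKM for 8 of the 11 ELIP and HLIP genes and for 27 of the 39 assembly factor genes (69.2%), against 41% of all genes tested. Relative to the mean at 0 h, the median ELIP and HLIP gene was at a log2 difference of 2.35, 1.78 and 1.42 in the first, the second and the third 6 h replicate, and the median assembly factor gene at 0.03, -0.26 and -0.47. The third 6 h replicate had the largest residual SD (0.630). Without it the median was 2.07 for the ELIP and HLIP genes and -0.08 for the assembly factor genes, and the 6 ELIP genes that rose and the 3 that fell were called as before in each of the 6 fits that left out a library.

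In deposited FPKM, not divided by the scaling factors, the summed level of the assembly factor genes was nearly the same at both times. The factors were lower at 6 h (0.884 to 0.914) than at 0 h (1.11 to 1.13), so scaling raises the 6 h sum relative to 0 h. CURT1 alone had a mean of 507 FPKM at 6 h and 139 FPKM at 0 h, while 22 of the 39 genes had negative log2 fold changes and 17 positive. The 39 genes summed to 2505 ± 286 FPKM at 6 h and 2473 ± 75.6 FPKM at 0 h (SD, n = 3 each), a ratio of 1.01, and took 0.237 to 0.245% of all FPKM at 6 h and 0.259 to 0.262% at 0 h, a slightly lower share in every 6 h library. Of the 39, 25 were not called, 12 of them with an adjusted p under 0.05 but a change under 2-fold. With or without a call, 26 of the 39 had an adjusted p under 0.05, against 9361 of the 13886 genes tested. The split between higher and lower calls depended on the scaling, with 6 higher and 8 lower as given above, 4 and 11 without scaling factors, and 3 and 14 on the TPM scale. The whole table moved in the same direction. Over all 13886 genes tested, 2772 were higher and 3692 lower in the main fit, 1925 and 4466 without scaling factors, and 1624 and 4738 on the TPM scale. CURT1, KEA1 and PPD4 were called higher under every scaling, and the same 8 genes were called lower. Limma treat, which tests against a 2-fold change itself, left 3 genes higher and 6 lower, and by it ALB3A, CPSFL1, LPA3A, LPA3B and PPD3 were not called.

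Among the factors of photosystem II assembly, the 2 genes for LPA3 changed in opposite directions. LPA3 is known from Arabidopsis, where it helps to bring the inner antenna protein CP43 into photosystem II. LPA3A (Cz16g08170) had 112, 95.3 and 70.1 FPKM at 6 h, against 39.2, 40.9 and 45.6 FPKM at 0 h, a log2 fold change of 1.43 ± 0.19 (limma, BH-adjusted p = 9.91e-04). On the TPM scale it was 0.99 and no longer called. LPA3B (Cz12g08020) had 38.0, 35.9 and 29.1 FPKM at 6 h, against 103, 113 and 113 FPKM at 0 h, a log2 fold change of -1.38 ± 0.14 (limma, BH-adjusted p = 2.55e-04). The order of both genes was thus exchanged. LPA3A was the higher in all 3 libraries at 6 h, 2.66-fold on average, and LPA3B was the higher in all 3 libraries at 0 h, 2.62-fold on average.

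The other 5 genes of this role had negative log2 fold changes and were not called. HCF136 (Cz10g21040), which in Arabidopsis acts early, on the reaction centre, was at -0.29 and was the most abundant of them, with a mean of 129 FPKM at 6 h and 192 FPKM at 0 h. LPA1A (Cz05g07170) was at -0.84 and LPA1B (Cz01g20260) at -0.28; LPA1 is a membrane protein that in Arabidopsis assists the D1 subunit. RBD1 (Cz05g36060), a thylakoid rubredoxin needed for photosystem II in algae and plants, was at -0.77, and PAM68 (Cz02g08100), which in Arabidopsis acts on early assembly intermediates, at -0.40. LPA1A and RBD1 passed a 2-fold change on the TPM scale (-1.28 and -1.22) and without scaling factors (-1.15 and -1.08). For photosystem I, the log2 fold changes were 0.33 for Y3IP1 (Cz15g08190), a partner of the assembly protein Ycf3 in plants, and 0.04 for HCF101 (Cz04g32150), a carrier of iron-sulphur clusters. Neither was called, and both were negative on the TPM scale (-0.11 for Y3IP1 and -0.40 for HCF101).

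The 9 PPD genes encode proteins with a PsbP domain, relatives of the extrinsic PsbP subunit of photosystem II that lie in the thylakoid lumen. One rose and 1 fell. PPD4 (Cz01g04150) had 181, 150 and 112 FPKM at 6 h, against 56.1, 51.2 and 58.6 FPKM at 0 h, a log2 fold change of 1.70 ± 0.20 (limma, BH-adjusted p = 4.69e-04). All 6 h libraries were above the 0 h libraries, and among each other they were 1.62-fold apart. PPD3 (Cz14g21260) had 34.0, 26.8 and 28.3 FPKM at 6 h, against 78.2, 82.4 and 83.2 FPKM at 0 h, a log2 fold change of -1.15 ± 0.13 (limma, BH-adjusted p = 4.41e-04). PPD4 was the higher of these 2 genes at 6 h, and PPD3 at 0 h. They were singled out as the only PPD genes called, and are not among the isogene pairs compared below. The remaining genes were not called. Their log2 fold changes were 0.71 for PPD2 (Cz19g02070), 0.44 for PPD5 (Cz12g14170), -0.07 for PPD6 (Cz04g08120), -0.41 for PPD9 (Cz04g02050), -0.54 for PPD7 (Cz04g12120), -0.60 for PPD1 (Cz03g13190) and -0.68 for PPD8 (Cz10g23090). PPD1 and PPD8 were called lower on the TPM scale (-1.03 and -1.12). PPD5 was the most variable of them at 6 h, with 90.8, 61.7 and 37.2 FPKM.

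Proteins of the ALB3 and Oxa family insert other proteins into membranes, and ALB3 is the insertase that receives light-harvesting proteins at the thylakoid. ALB3A (Cz05g17260) had 144, 134 and 123 FPKM at 6 h, against 77.9, 77.7 and 80.2 FPKM at 0 h, a log2 fold change of 1.07 ± 0.10 (limma, BH-adjusted p = 2.32e-04). It lies just above the limit of a 2-fold change, and was at 0.76 without scaling factors and 0.63 on the TPM scale. ALB3B (Cz05g36130) had 6.22, 4.57 and 3.63 FPKM at 6 h, against 57.4, 52.5 and 58.0 FPKM at 0 h, a log2 fold change of -3.24 ± 0.22 (limma, BH-adjusted p = 5.67e-05). Both genes were near each other at 0 h, where ALB3A was 1.40-fold the higher, and at 6 h ALB3A was 27.9-fold the higher. The OxaA genes, named for the related insertase of bacteria and mitochondria, were not called, with log2 fold changes of 0.52 for OxaA1 (Cz03g01150) and 0.80 for OxaA2 (Cz01g09150). HCF164, a thioredoxin-like protein, is needed in Arabidopsis for the cytochrome b6f complex, and its log2 fold changes were -0.13 for HCF164A (Cz07g07160) and 0.27 for HCF164B (Cz08g24090).

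**Figure D3:**
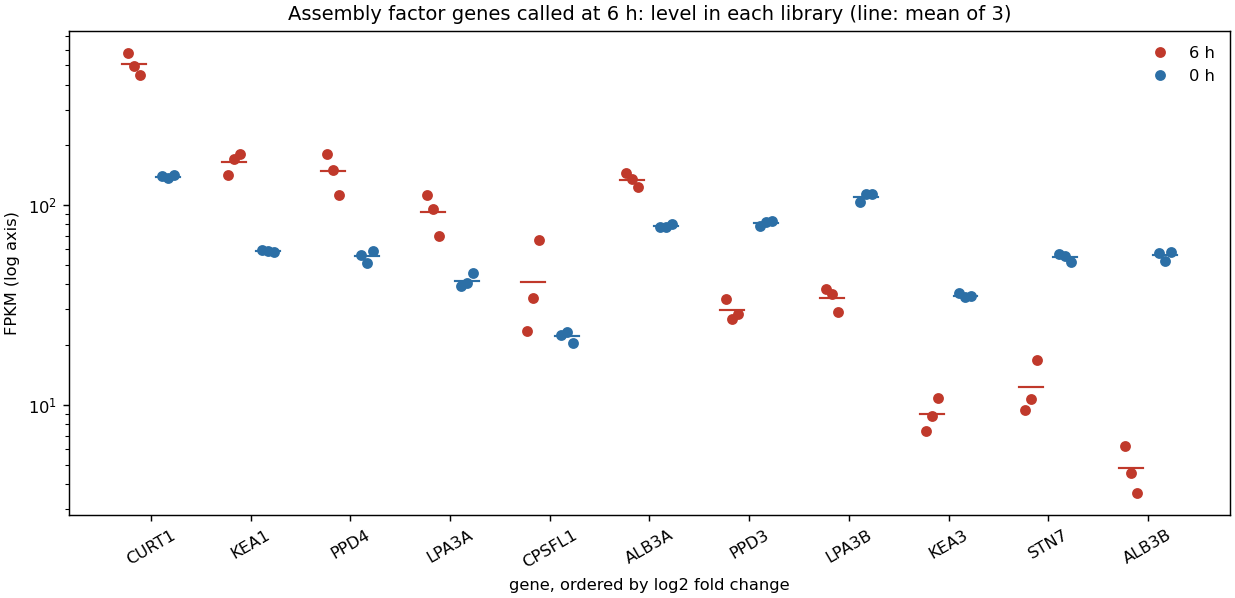
FPKM (log axis) of the named assembly factor genes that were called, in each library, 6 h in red on the left and 0 h in blue on the right of each gene, with a line at the mean of the 3 libraries. CURT1 is the most abundant at 6 h (448 to 575 FPKM), and CPSFL1 has the widest 6 h libraries.

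Of the 3 genes for the structure of the thylakoid, 2 rose. CURT1 (Cz05g04030), whose Arabidopsis relatives bend the membrane at the margins of grana, had 575, 498 and 448 FPKM at 6 h, against 139, 137 and 141 FPKM at 0 h. Its log2 fold change of 2.17 ± 0.13 was the largest rise among the assembly factors (limma, BH-adjusted p = 3.56e-05). CPSFL1 (Cz03g12090), a chloroplast protein of the Sec14 lipid-transfer family, had 23.3, 34.0 and 66.6 FPKM at 6 h, against 22.4, 23.2 and 20.3 FPKM at 0 h. The first 6 h replicate was hardly above the 0 h libraries and the highest 6 h library was 2.86-fold above it, and the log2 fold change was 1.08 ± 0.36 (limma, BH-adjusted p = 0.0382). This call depended on single libraries and on the scaling (0.77 without scaling factors and 0.64 on the TPM scale, not called). Without the third 6 h replicate the log2 fold change was 0.68, and leaving out any other library but the first 6 h replicate gave a BH-adjusted p of 0.0788 to 0.109 in limma. THF1 (Cz05g05190), required for thylakoid formation in Arabidopsis, was among the most abundant members at 0 h, with a mean of 222 FPKM at 6 h and 245 FPKM at 0 h and a log2 fold change of 0.17, which was -0.14 without scaling factors.

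Kinases and ion antiporters regulate photosystems that are already built. STN7 (Cz06g00060), the kinase that phosphorylates light-harvesting proteins in state transitions, had 9.38, 10.7 and 16.7 FPKM at 6 h, against 56.7, 55.7 and 51.7 FPKM at 0 h. It fell by 1.88 ± 0.22 on the log2 scale (limma, BH-adjusted p = 5.23e-04). STN8 (Cz10g22110), which in Arabidopsis phosphorylates core subunits of photosystem II, was not called, with a log2 fold change of 0.24. Of the K+/H+ antiporters, which in Arabidopsis act in the chloroplast envelope (KEA1) and in the thylakoid (KEA3), 1 rose and 1 fell. KEA1 (Cz13g09190) had 142, 170 and 180 FPKM at 6 h, against 59.4, 59.0 and 57.9 FPKM at 0 h, a log2 fold change of 1.78 ± 0.11 (limma, BH-adjusted p = 4.01e-05). KEA3 (Cz07g15180) had 7.35, 8.75 and 10.9 FPKM at 6 h, against 36.2, 34.4 and 35.0 FPKM at 0 h, a log2 fold change of -1.67 ± 0.16 (limma, BH-adjusted p = 2.4e-04). KEA1 was thus far more abundant than KEA3 at 6 h, and their 0 h levels were nearer to each other. The antiporter gene KEA4 (Cz10g20050) was at -0.30 and not called.

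Genes for turnover and signalling were under the limit of a 2-fold change, but EX1 and PGR7 were called lower on the TPM scale (-1.06 and -1.32). FtsH (Cz02g25060), the thylakoid protease that removes damaged D1, had a mean of 185 FPKM at 6 h and 156 FPKM at 0 h, and its log2 fold change of 0.55 ± 0.09 was the most precise of the members. The EXECUTER genes are known from Arabidopsis as signals of singlet oxygen from chloroplast to nucleus. EX1 (Cz01g19060) had 8.53, 9.88 and 14.9 FPKM at 6 h, against 20.3, 21.7 and 20.2 FPKM at 0 h, with a log2 fold change of -0.63 ± 0.22 (limma, BH-adjusted p = 0.0429). EX2 (Cz06g34170) had 36.3, 29.9 and 21.3 FPKM at 6 h, against 19.0, 18.1 and 21.1 FPKM at 0 h, with a log2 fold change of 0.86 ± 0.22 (limma, BH-adjusted p = 0.0136). The third 6 h replicate of EX2 was hardly above the 0 h libraries, and without it the log2 fold change was 1.08 and called. PGR7 (Cz11g03230), linked to photosynthetic electron flow in Arabidopsis, was at -0.89 and came closest to the limit of the genes not called, with -1.19 without scaling factors. Just inside the limit stood ALB3A (1.07), CPSFL1 (1.08) and PPD3 (-1.15), and just outside PGR7, EX2 (0.86) and LPA1A (-0.84).

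For isogenes the ratio within a library hardly depends on the scaling between libraries, and 6 pairs with the same annotation were compared. The log2 ratio of ALB3A to ALB3B was 4.51, 4.85 and 5.05 at 6 h, against 0.44, 0.56 and 0.47 at 0 h, a difference of 4.31. For LPA3A to LPA3B it was 1.56, 1.41 and 1.27 at 6 h, against -1.39, -1.47 and -1.31 at 0 h, a difference of 2.80. In both pairs the balance moved towards the A gene in every library. For EX1 to EX2 the ratio was -2.07, -1.59 and -0.51 at 6 h, against 0.09, 0.26 and -0.06 at 0 h, a difference of -1.49 with wide 6 h libraries. Smaller differences without overlap were found for LPA1A to LPA1B (-0.56) and HCF164A to HCF164B (-0.40), and the ratio of OxaA1 to OxaA2 overlapped between the times (-0.28). An exact two-sided permutation test gave p = 0.1 for each of the 5 pairs without overlap, the smallest value that 3 against 3 libraries allow, and p = 0.5 for OxaA (0.12 and 0.5 after BH adjustment over the 6 pairs), so none could pass 0.05.

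**Figure D4:**
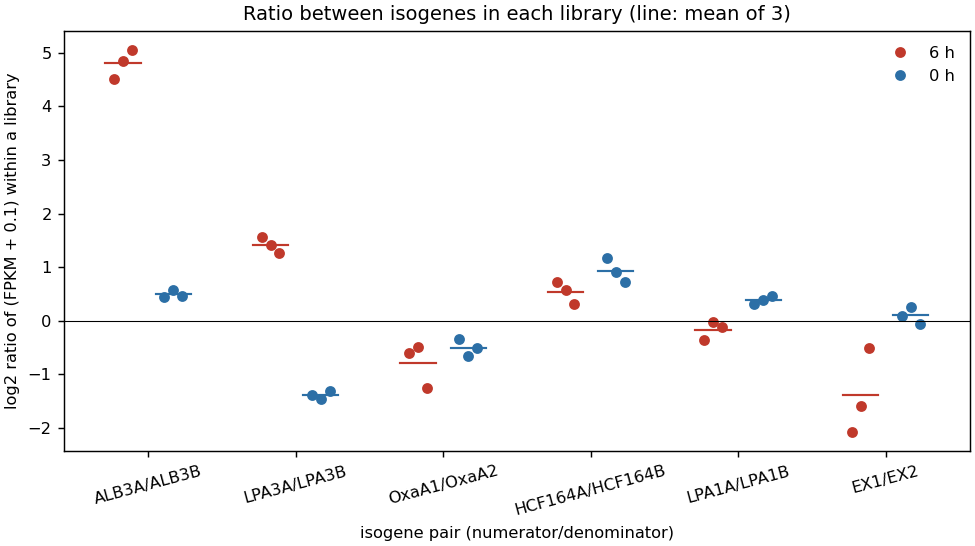
Log2 ratio of FPKM + 0.1 between 2 isogenes within each library (vertical) for 6 pairs, 6 h in red on the left and 0 h in blue on the right, with a line at the mean of 3. The ALB3 and LPA3 pairs are separated by 4.31 and 2.80, and the OxaA pair overlaps.

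Calls among the photosystem and light-harvesting genes were mostly in 1 direction. Of the 23 genes tested in the photosystem I and II sections of the study's list, 2 were higher and 20 lower, at a median log2 fold change of -5.06. The 2 higher were Psb27C (1.19) and Psb28 (1.33), and Psb27B (-0.42) was not called. Of the 21 light-harvesting genes tested, 3 were higher and 16 lower, at a median of -6.88. The chloroplast translocase section holds SECY, TAT and CPSRP genes beside the TIC and TOC genes. Of its 24 genes, 4 (16.7%) were higher and 1 (4.17%) was lower, at a median of 0.57, against 20.0% and 26.6% of all genes. The gene called lower was CPSRP54A (-2.08). The assembly factors, at a median of -0.28, thus lay between these lists and near the median of all genes (-0.04), and these medians are descriptions with no test. Genes of photoprotection outside the lists differed from each other. PSBS (Cz03g01250), a sensor of lumen pH for the dissipation of excess light as heat, had 599, 317 and 350 FPKM at 6 h, against 50.8, 49.8 and 50.5 FPKM at 0 h, and rose by 3.31 ± 0.26 on the log2 scale (limma, BH-adjusted p = 9.37e-05). LHCSR (Cz16g02040), which serves the same process in algae, had 199, 156 and 185 FPKM at 6 h, against 272, 293 and 300 FPKM at 0 h, and was not called (-0.38). VIPP proteins shape and maintain thylakoid membranes. One VIPP gene (Cz18g13110) had 164, 212 and 220 FPKM at 6 h, against 20.8, 23.7 and 23.1 FPKM at 0 h, a log2 fold change of 3.43 ± 0.13 (limma, BH-adjusted p = 1.15e-05), and the other (Cz08g24120) had a mean of 124 FPKM at 6 h and 82.1 FPKM at 0 h, with 0.91 under the limit.

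**Figure D5:**
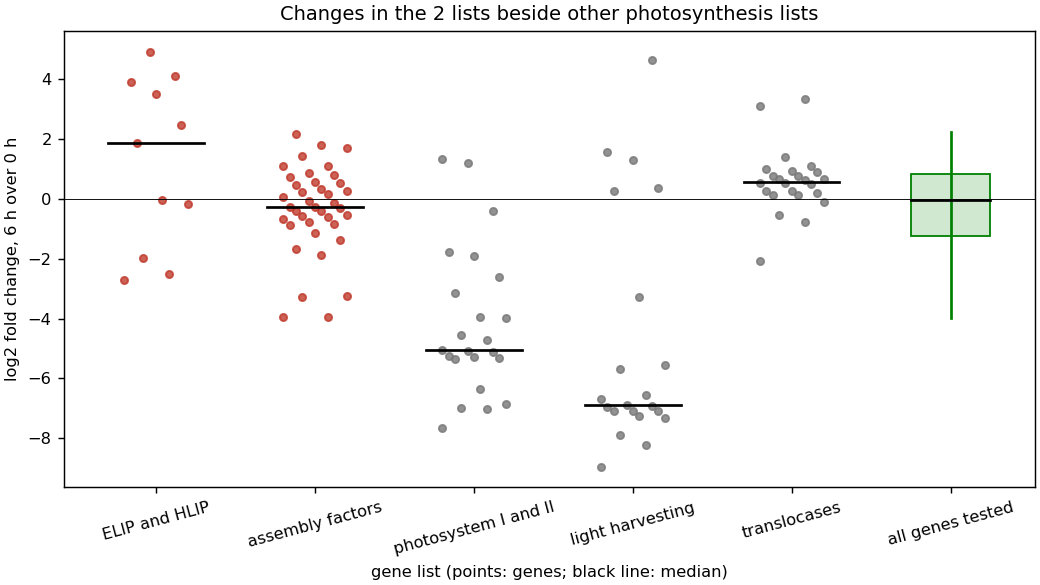
Log2 fold change, 6 h over 0 h (vertical), of each gene (points) in the ELIP and HLIP list and the assembly factor list (red) and in 3 other photosynthesis lists (grey), with black lines at the medians; the box marks the quartiles of all genes tested and its line the range from the 5th to the 95th percentile. The ELIP and HLIP median is at 1.85 and the assembly factor median at -0.28, while the photosystem and light-harvesting medians lie at -5.06 and -6.88.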

How the data were processed

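The deposited values are FPKM with 2 decimals per gene model, made by the authors. The study's methods name TopHat and Cufflinks, and the submitters' processing notes name HISAT, Bowtie2 and RSEM, so the tool behind the files is not settled. For the genome build and strandedness: not given in the sources used here. FPKM carry no counts, so fragments per gene model cannot be read from these files, no counting interval was computed, and precision comes from the spread of 3 libraries. A gene missing from a library's list was read as 0. Libraries were divided by median-of-ratios factors (0.884 to 0.914 at 6 h, 1.11 to 1.13 at 0 h), and 0.1 was added before log2. A mean of at least 1 FPKM at either time was required. Limma 3.58.1 in R 4.3.3 (mean-variance trend, time as the only term) gave two-sided p-values, adjusted by the Benjamini-Hochberg method over 13886 genes.

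The members, lists and tests were chosen with earlier results of these data known. Every member was named with its log2 fold change, except 3 that are counted in the totals but not reported here. Values per library were given for all ELIP and HLIP genes, for the 10 largest rises and falls among called assembly factors (6 and 8 existed), for isogene pairs whose ratios did not overlap and differed by at least 1, for LHCSR and PSBS, and for the VIPP genes. The comparison of the ELIP and light-harvesting sums, the share of ELIP1, ELIP4 and ELIP7, and the counts of the highest 6 h library were added after values were seen. The fit was tested on simulated data (13715 genes, 200 of them changed). There 71.1% of the tested changes of 1.5 (69 of 97) and 100% of those of 3 (100 of 100) on the log2 scale were called. The simulated noise had the same SD for every gene of a library, so recovery for low or more variable genes was not tested. Recovery with as many changed genes as were called in the deposited data (2772 higher and 3692 lower) was not tested. Alternatives were no scaling, TPM scaling, pseudocounts of 1 and 0.01, no filter, a filter at 10 FPKM, a replicate block, library weights, no trend, limma treat, and leaving out each library. No member shared all its values with another gene. Fold changes of low genes are understated by the pseudocount.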

Additional observations from a re-analysis of the deposited data

How the results depend on the processing

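The calls of the 6 ELIP genes that rose held in every alternative in which they were tested, and ELIP6 was left out by the filter at 10 FPKM. With that filter 1 ELIP gene was called lower, since ELIP8 and ELIP10 were not tested. On the TPM scale 3 assembly factors were called higher and 14 lower, and over all genes 1624 were called higher and 4738 lower. With the limit inside the test (limma treat), 3 assembly factors were higher and 6 lower (ALB3A, CPSFL1, LPA3A, LPA3B and PPD3 were not called), ELIP8 was not called, and over all genes 1384 were higher and 2417 lower. The median over assembly factors was -0.59 without scaling and -0.72 on the TPM scale, beside -0.34 and -0.47 over all genes tested.

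Uncalled genes changed sign without scaling and on the TPM scale in HCF101 (-0.27 and -0.40), THF1 (-0.14 and -0.28), STN8 (-0.072 and -0.20) and HCF164B (-0.041 and -0.17), and on the TPM scale in Y3IP1 (-0.11). HLIP1 was at 0.033 with library weights. With 1 library left out at a time, the log2 fold change ranged over both signs in HLIP1 (-0.090 to 0.055), ELIP5 (-0.48 to 0.12), HCF164A (-0.29 to 0.062), PPD6 (-0.28 to 0.14) and HCF101 (-0.088 to 0.20). Over the fits that left out 1 library, 5 to 6 assembly factors were called higher and 8 lower in each.

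Same-numbered libraries showed no likeness across the times. Their deviations correlated at -0.304, -0.111 and -0.489 across genes, and no 6 h library was closest to its own number at 0 h. The deviations were taken from the mean of only 3 libraries per time, so they cannot show whether same-numbered libraries were paired. With the replicate block, 6 ELIP genes were called higher and 3 lower, and 5 assembly factors higher and 8 lower; CPSFL1 was not called (limma, BH-adjusted p = 0.0602). Values under about 1 FPKM, as in ELIP6 and ELIP8, limit what can be said of fold changes.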
